A study of Mus musculus with 8 samples.

Results

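Skin fibroblasts that lack the microRNA miR-210 were compared with wild-type (WT) fibroblasts after 24 h at 1% oxygen. Small RNAs were sequenced in 2 libraries of knockout (KO) cells and 2 libraries of WT cells. The table listed 2403 small RNA features, and those with a normalized read count of at least 10 in at least 2 of these 4 libraries were described, which left 1475. They were 556 of 813 microRNAs, 410 of 423 genomic transfer RNAs, 369 of 511 small nucleolar RNAs, 55 of 349 piRNAs, 38 of 125 small nuclear RNAs, 22 of 22 mitochondrial transfer RNAs, 12 of 110 miscellaneous RNAs, 12 of 28 ribosomal RNAs and 1 of 12 other transfer RNAs. None of the 8 lincRNA and 2 non-coding features reached that level.

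Both groups were immortalized lines from the skin of C57BL/6 mice. WT cells carried the unmodified gene, and the cells named KO carried the genotype mir210lox/lox, an allele in which lox sites flank the gene so that a recombinase can remove it. The sources used here do not name the recombinase, the number of lines per genotype, or whether numbered libraries were separate cultures. Genotype and fibroblast line therefore cannot be told apart, and every p-value refers to the spread among these libraries, which may be technical. The same cells at 21% oxygen, 2 libraries per genotype, entered the estimate of spread and gave the genotype difference in normoxia.

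MicroRNAs are cut from a hairpin precursor, whose 5p and 3p arms can each be loaded into an Argonaute protein, and the seed at bases 2 to 8 pairs with target messages. miR-210 is the microRNA best known for induction by hypoxia-inducible factor when oxygen falls, and it lowers mitochondrial respiration through targets such as Iscu. RefSeq places the Mir210 hairpin at chr7:141221384-141221493 on the minus strand of GRCm38, where the GENCODE annotation gives it an exon of its own with no overlapping gene. The hairpin is shown with both arms in capitals, and each mature arm with its seed in capitals, because these are the 2 RNAs that the genotype removes.
Mir210 hairpin: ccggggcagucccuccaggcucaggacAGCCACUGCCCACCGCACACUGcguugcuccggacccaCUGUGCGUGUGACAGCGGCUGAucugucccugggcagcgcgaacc
miR-210-5p: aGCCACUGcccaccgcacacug
miR-210-3p: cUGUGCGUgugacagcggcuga

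miR-210-3p, the abundant guide arm, read 36738 and 39011 in the WT hypoxia libraries and 10 and 32 in the KO hypoxia libraries. A trace of the WT level was thus read in the KO libraries, and the groups did not overlap. The source of these KO reads was not tested. The difference on the log2(value + 1) scale was −10.96 (SE 0.50, adjusted p = 2.5e-06 by limma), and the summed values differed by 1804-fold (95% exact interval from 1334 to 2503, which covers counting error alone). miR-210-5p, the opposite arm, read 163 and 246 in WT and 0 and 1 in KO. The value of 0 allows a share of up to 3.11e-05% of that library (3 counts of its total). The arm fell by 7.15 in log2 units (SE 0.60, adjusted p = 3.6e-04 by limma), and its single KO read makes the 409-fold ratio of sums imprecise (95% exact interval 73.0 to 16194). Its WT values alone admitted miR-210-5p, so its direction was fixed in advance and its p-value gives no support of its own.

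**Figure D1:**
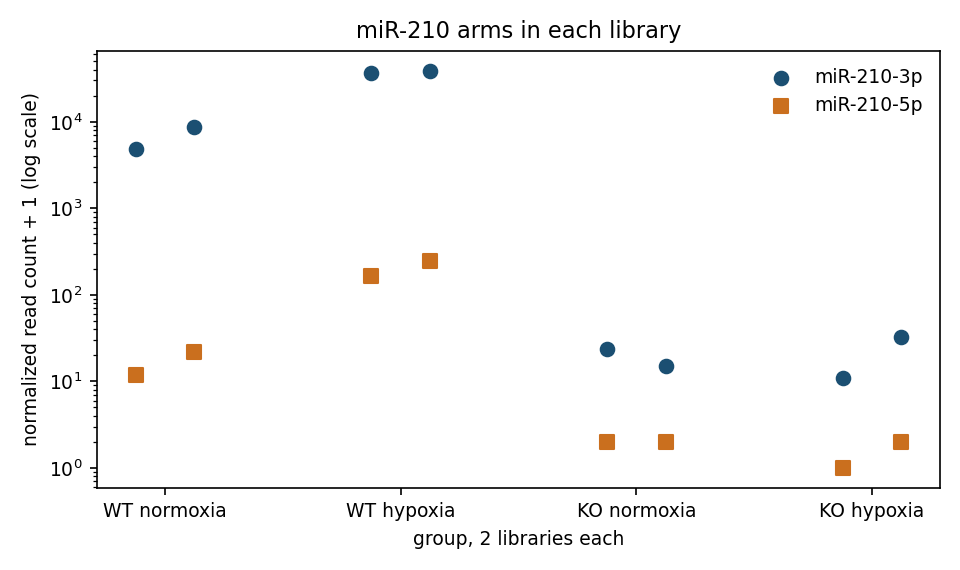
Normalized read count + 1 (log axis) of miR-210-3p (circles) and miR-210-5p (squares) in each of the 8 libraries, 2 per group. The WT hypoxia libraries are highest for both arms, and no KO library exceeds 32 reads for either arm.

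At 21% oxygen miR-210-3p read 4786 and 8676 in WT and 23 and 14 in KO, so the KO values at both oxygen levels were of the same order while the WT level was higher in hypoxia. The KO minus WT difference was −8.41 in normoxia for miR-210-3p and −3.02 for miR-210-5p. The hypoxia difference exceeded the normoxia difference by −2.55 and −4.13 on the log2 scale, and neither passed the test of that contrast across all features (limma, adjusted p = 1.00 and 0.917). Both arms had an unadjusted limma p under 0.05 for that contrast, as had 2.40% of all features. The nearest other tested feature to Mir210, the small nucleolar RNA Snora52 227 kb away, read 166 and 116 in WT and 162 and 121 in KO.

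The 2 miR-210 arms were the only features of 1540 tested that passed an adjusted p of 0.05 (limma), which is 0.130% of features. All other differences in this account are therefore given as levels and differences that did not pass the test. At an unadjusted p under 0.05, 110 features were higher in KO (7.14%) and 29 lower (1.88%). The 2 KO values lay above both WT values for 295 features (19.2%) and below them for 256 (16.6%). Of the 1475 members, 8 were admitted by their WT values alone, miR-210-5p among them, and 8 by their KO values alone, so for these 16 the groups had to differ.

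The 4 hypoxia libraries had totals from 9649531 to 12167438 normalized reads, which do not give sequencing depth because the values were already normalized. The makeup of the libraries differed. KO hypoxia library 1 held 5.76% ribosomal RNA against 1.88% to 2.59% in the other libraries, and 10.01% genomic transfer RNA against 6.49% to 7.60%. MicroRNA made up 73.0% of that library and 78.6% to 82.0% of the others. Between the 2 libraries of a group, 13.2% of features in WT and 13.4% in KO differed by more than 2-fold.

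The fibroblast label was matched by the most abundant microRNAs. The list of microRNAs typical of fibroblasts and mesenchyme had 29 of 30 features as members, and its summed level was 5227470 and 6511235 in WT and 4552947 and 5941455 in KO. miR-21-5p alone read 2908184 and 3246233 in WT and 2701719 and 2958842 in KO, and miR-143-3p read 238975 and 439756 in WT and 195457 and 392711 in KO. Both sets of values overlapped between genotypes.

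Markers of other cell types were low. Epithelial microRNAs (3 of 8 features as members) summed to 135 and 230 in WT and 82 and 256 in KO, endothelial miR-126 (2 of 2) to 153 and 174 against 117 and 145, muscle microRNAs (3 of 6) to 288 and 162 against 230 and 200, and neural and melanocyte microRNAs (5 of 9) to 1481 and 2062 against 1481 and 1753. Haematopoietic microRNAs (5 of 8) summed to 3146 and 1650 in WT and 898 and 1602 in KO, nearly all of it miR-451, which is made in red cell precursors. miR-451 read 2986 and 1479 in WT and 790 and 1474 in KO (log2 difference −0.96, SE 0.47, limma, adjusted p = 0.618). The parts of other cells in the results below were not tested.

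**Figure D2:**
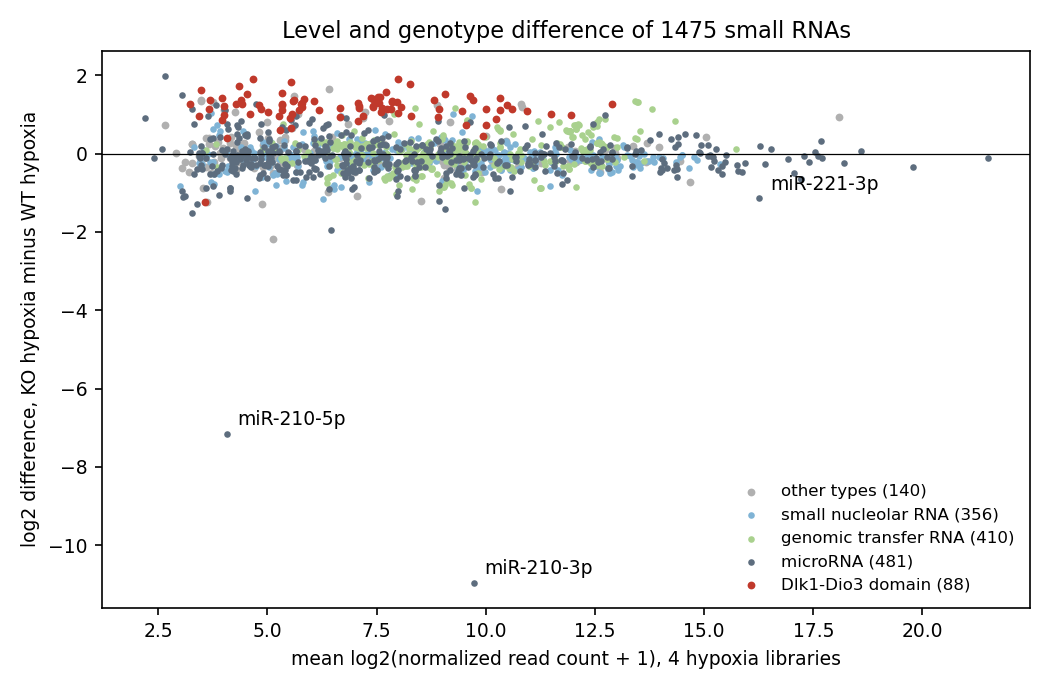
Mean log2(normalized read count + 1) over the 4 hypoxia libraries (x axis) against the log2 difference KO hypoxia minus WT hypoxia (y axis), 1 point per small RNA. The 2 miR-210 arms lie at −10.96 and −7.15, far from all other points, and the 88 features of the Dlk1-Dio3 domain lie above 0 with 1 exception.

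A pattern away from miR-210 concerned the Dlk1-Dio3 domain of chromosome 12. This imprinted domain carries protein-coding genes expressed from the paternal chromosome and, on the maternal chromosome, long non-coding RNAs (Meg3, Rian and Mirg) that release a large cluster of microRNAs and box C/D small nucleolar RNAs. In the coordinates of the files, whose build no source used here names, its small RNAs ran from miR-770-5p to miR-3072-3p at chr12:110801919-110986160, a span of 184.2 kb. Of its 107 listed features 88 were members, 75 microRNAs and 13 small nucleolar RNAs. Their share of all normalized reads was 0.174% and 0.317% in the WT hypoxia libraries and 0.531% and 0.572% in the KO hypoxia libraries.

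Of the 74 members on the list of Dlk1-Dio3 microRNAs (91 features listed), 73 had a log2 difference above 0, as had 45.4% of all tested features. Both KO values lay above both WT values for 68 of the 74 (19.2% of all features), and 54 were higher at an unadjusted p under 0.05 (7.14% of all features). None passed the adjusted threshold. The median difference was 1.20, against −0.04 over all features tested. The filter fixed the direction of 4 members, miR-370-3p, miR-666-5p and miR-496-5p through their KO values alone and miR-410-5p through its WT values alone. Of the other 70 members 70 were above 0 and 65 had no overlap. Between libraries that share a number the median was 1.58 (number 1) and 0.77 (number 2). WT hypoxia library 1 held the lowest values of the domain, and without it the median was 0.72 and 4 members had an unadjusted p under 0.05. Without KO hypoxia library 2 these were 1.13 and 21, and without KO hypoxia library 1 they were 1.32 and 35.

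MicroRNAs of the domain whose values follow are shown with their seeds in capitals, as RefSeq gives them, to show that their seeds differ.
miR-540-5p: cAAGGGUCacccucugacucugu
miR-409-3p: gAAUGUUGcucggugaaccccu
miR-665-3p: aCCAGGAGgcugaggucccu
miR-134-5p: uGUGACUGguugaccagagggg
miR-376b-3p: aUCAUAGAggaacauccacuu
miR-300-5p: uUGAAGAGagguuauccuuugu
miR-494-3p: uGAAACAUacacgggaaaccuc
miR-127-3p: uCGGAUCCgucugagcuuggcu
The 67 members of the list with a RefSeq mature sequence held 65 different seeds, and 2 seeds were held by a pair each. The other 7 members were not compared.

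miR-540-5p had the smallest p-value outside miR-210, with 117 and 146 in WT and 638 and 375 in KO (log2 difference 1.90, SE 0.35, limma, adjusted p = 0.189). miR-409-3p read 341 and 668 in WT and 1427 and 1217 in KO (1.46, SE 0.35, limma, adjusted p = 0.493). Each KO value of these microRNAs was above each WT value. miR-134-5p, which is known for its role at neuronal dendrites, read 516 and 1194 in WT and 2062 and 2113 in KO (1.41, SE 0.41). miR-376b-3p read 195 and 508 in WT and 948 and 871 in KO (1.53, SE 0.45). For both, WT library 1 was well below WT library 2 while the KO libraries were close.

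Lower in abundance, miR-496-3p read 100 and 111 in WT and 241 and 318 in KO (1.39, SE 0.40). miR-665-3p read 75 and 135 against 285 and 256 (1.41, SE 0.41), and miR-300-5p read 86 and 164 against 321 and 268 (1.30, SE 0.38). miR-494-3p read 83 and 153 in WT and 265 and 251 in KO (1.19, SE 0.35). The groups did not overlap for any of the 4.

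The 2 most abundant members of the domain were miR-127-3p, which is antisense to the retrotransposon-derived gene Rtl1, and miR-379-5p, the first hairpin of the large downstream cluster. miR-127-3p read 2645 and 8899 in WT and 9629 and 14275 in KO (1.27, SE 0.54), so the higher WT library came close to the lower KO library. miR-379-5p read 2111 and 3758 in WT and 4358 and 7174 in KO (0.99, SE 0.40). The only member below 0, singled out after its values were seen, was miR-410-5p with 12 and 25 in WT and 9 and 5 in KO (−1.25), and its admission through the WT values alone fixed that direction. The opposite arm of that hairpin, miR-410-3p, read 272 and 992 in WT and 1192 and 1493 in KO (1.36). In 29 of 30 Dlk1-Dio3 hairpins with both arms among the members the arms had the same sign. With no listed member but miR-410-5p below 0, a shared sign was nearly fixed in advance. The size of the difference did not go together between the arms of these 30 hairpins (Pearson's r −0.04, Spearman's rho −0.11). Elsewhere the arms had the same sign in 95 of 143 hairpins.

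The small nucleolar RNAs of the domain, which come from the same long transcripts and not from microRNA hairpins, showed the same direction. All 13 members were above 0, 11 had both KO values above both WT values, and their median was 1.29 (1.57 between the libraries numbered 1 and 0.94 between those numbered 2). FR343111 was admitted by its KO values alone and so had to be higher. Of the other 12 members 12 were above 0 and 10 had no overlap, against 19.2% of all features. The 13 also hold 2 pairs of entries of which one lies inside the other, FR325285 in FR310934 and FR280892 in FR014374, so they are not 13 independent features. The median was 0.95 without WT hypoxia library 1. The 356 small nucleolar RNA members outside the domain had a median of −0.11, and 102 of them were above 0. The 30 members on chromosome 12 outside the domain had a median of −0.02, 15 above and 15 below 0.

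Small nucleolar RNAs of the domain are shown as the files give them, with the letters TGATGA (the core of box C) and CTGA (box D) in capitals, because both boxes define their class.
FR310934: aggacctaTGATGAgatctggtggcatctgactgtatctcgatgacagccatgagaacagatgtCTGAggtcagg
FR115095: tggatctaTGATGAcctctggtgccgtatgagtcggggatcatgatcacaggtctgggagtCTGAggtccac
FR060513: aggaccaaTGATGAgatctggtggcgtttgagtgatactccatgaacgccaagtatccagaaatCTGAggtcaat
Searched on the strand given in the files, TGATGA within the first 20 bases and CTGA within the last 20 were both found in 8 of the 13 (61.5%), in 39.2% of all listed small nucleolar RNAs under 110 bases and in 4.35% of the longer ones. FR310934, annotated as AF357341 at chr12:110919729-110919803, read 93 and 139 in WT and 368 and 267 in KO (1.45, SE 0.33, limma, adjusted p = 0.461). FR140834 (Gm25854) read 72 and 101 against 211 and 211 (1.30, SE 0.35). FR115095 (DQ267102) read 25 and 47 against 82 and 102 (1.39, SE 0.41), and FR060513 (Gm23736) read 26 and 33 against 96 and 59 (1.33, SE 0.41). None of the 4 had overlapping groups.

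**Figure D3:**
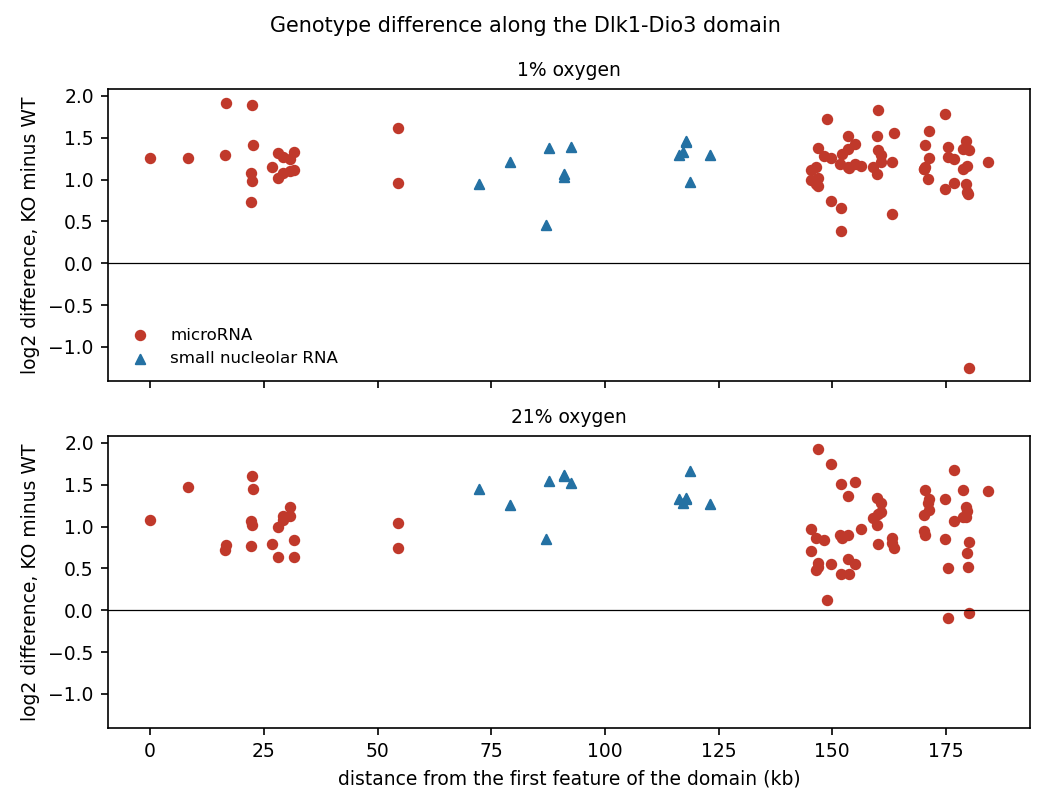
Log2 difference KO minus WT (y axis) of the 88 Dlk1-Dio3 features by distance from the first feature in kb (x axis), at 1% oxygen (upper panel) and 21% oxygen (lower panel), with microRNAs as circles and small nucleolar RNAs as triangles. At 1% oxygen 87 of the 88 lie above 0, over the whole 184.2 kb.

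The normoxia libraries, which share no library with the hypoxia comparison, gave a similar picture for the domain. The median KO minus WT difference of the 74 microRNAs was 0.98 at 21% oxygen and that of the 13 small nucleolar RNAs was 1.34. At 21% oxygen the domain held 0.181% and 0.270% of reads in WT and 0.531% and 0.477% in KO. WT library 1 thus held the lowest share in normoxia, as it did in hypoxia (0.174%), so both comparisons carry a low WT library of the same number. The KO values lay above both WT values for 56 of the 74 microRNAs in normoxia, as for 21.9% of all features. None of the 74 microRNAs had an unadjusted p under 0.05 for the difference between the oxygen levels, where 2.40% of all features did.

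Few other microRNAs stood out as higher. Of the 556 microRNA members, 59 had an unadjusted limma p under 0.05 and a higher KO level, and 5 of these lay outside the domain. The share over all features was 7.14%, which includes the features of the domain. All 5 were named after their values were seen. miR-218-5p, which is encoded in introns of the Slit genes, read 3868 and 5982 in WT and 9013 and 10046 in KO (0.98, SE 0.32). Its passenger arm miR-218-1-3p read 4 and 1 against 12 and 11, and was admitted by its KO values alone. Both arms of miR-452 were higher by a similar amount, with 158 and 132 against 293 and 280 for miR-452-5p and 38 and 32 against 74 and 65 for miR-452-3p. miR-130b-5p read 71 and 91 against 142 and 164.

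Lower levels in KO were led by features with little in common. A feature annotated as Mir148a (ENSMUST00000083571) read 280 and 105 in WT and 26 and 74 in KO (−1.94, SE 0.58, limma, adjusted p = 0.493), while its mature product miR-148a-3p overlapped, with 2337 and 5052 in WT and 2743 and 5091 in KO. miR-129-5p read 310 and 432 against 133 and 221 (−1.09, SE 0.37). miR-28-3p read 1044 and 741 against 707 and 151 (−1.42, SE 0.67), with the KO libraries far apart. Near the level needed for admission, miR-190-3p read 17 and 14 against 8 and 4 (−1.29), admitted by its WT values alone, and miR-3068-3p read 18 and 23 against 7 and 12 (−1.07).

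miR-221-3p is an abundant, proliferation-linked microRNA that targets the cell cycle inhibitor p27. It read 101754 and 134450 in WT and 47457 and 59094 in KO (−1.14, SE 0.44, limma, adjusted p = 0.545), and the groups did not overlap. miR-222-3p is transcribed with it and shares its seed, shown in capitals.
miR-221-3p: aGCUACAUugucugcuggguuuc
miR-222-3p: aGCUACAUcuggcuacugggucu
miR-222-3p went the other way, with 11816 and 12873 in WT and 14855 and 16801 in KO (0.36, SE 0.28). The pair therefore differed in sign within the same 4 libraries, and the 5p arm of miR-221 overlapped, with 444 and 508 in WT and 434 and 629 in KO. In normoxia miR-221-3p read 100322 and 51865 in WT and 123642 and 53618 in KO. The change of its genotype difference with oxygen was −1.32 (limma, adjusted p = 1.00 for that contrast).

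Lists of other microRNA families were described by counts and medians, and none of their members passed the threshold. The rodent-specific miR-466, miR-467, miR-669 and miR-297 families, most of them processed from repeats in an intron of Sfmbt2, had 51 of 57 members below 0 and 35 with both KO values below both WT values (16.6% of all features), with a median of −0.41. miR-466b-3p read 2637 and 3488 in WT and 2125 and 2380 in KO (−0.43, SE 0.30). In normoxia the median of these families was −0.89 with 55 of 57 below 0, and miR-467a-5p had one of the 3 smallest p-values for the difference between oxygen levels (1.66, unadjusted p = 0.0041, limma, adjusted p = 1.00). It read 6836 and 3705 in WT and 5554 and 6021 in KO in hypoxia (0.20, or −0.24 without WT hypoxia library 2), and 6448 and 6721 against 2468 and 2332 in normoxia.

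The miR-34 family, which p53 activates, had 6 of 6 members below 0, as had 54.6% of all features, with a median of −0.45. Both KO values lay below both WT values for 1 of the 6, and for 16.6% of all features. miR-34c-5p read 22067 and 24616 in WT and 13703 and 22202 in KO (−0.42, SE 0.30), and miR-34a-5p read 11525 and 13894 against 6144 and 11869 (−0.57, SE 0.35). KO hypoxia library 1 gave the lower value of both, and without it the family median was −0.08. Let-7 and miR-98, which restrain growth genes, had 17 of 21 members below 0 and a median of −0.16 that came to 0 when libraries were scaled to their microRNA total. let-7c-5p read 50682 and 85138 in WT and 41243 and 56495 in KO (−0.44, SE 0.34, or −0.07 without WT hypoxia library 2). miR-30d-5p read 37404 and 72700 against 30081 and 43847 (−0.52, SE 0.39, or −0.04 without that library), in a miR-30 family with a median of −0.04.

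The 49 members on a list of microRNAs reported to respond to hypoxia, miR-210 left out, had a median of −0.05 with 22 above and 27 below 0. Both members with an unadjusted p under 0.05 were arms of miR-485, which also belongs to the Dlk1-Dio3 domain. The miR-17/92 clusters, growth-promoting microRNAs that Myc activates, had a median of 0.06 (12 of 20 above 0), and miR-19b-3p overlapped with 200822 and 175017 in WT and 232607 and 161846 in KO. Medians were −0.14 for miR-15/16 (10 members), −0.32 for the cluster of miR-322 and miR-503 (10), 0.11 for the miR-501 cluster in Clcn5 (9), 0.22 for miR-221 and miR-222 (4), −0.12 for miR-181 (8), 0.12 for miR-130 and miR-301 (6), 0.16 for miR-148 and miR-152 (6), 0.16 for miR-146 and miR-155 (3) and −0.35 for imprinted microRNAs elsewhere (6). The 4 members from the Hox clusters had a median of 0.24, with miR-196b-5p at 50 and 80 in WT and 115 and 100 in KO (0.75) and miR-10b-5p at 47 and 50 against 29 and 37 (−0.55).

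Cell type lists had medians from −0.88 to −0.02. Fibroblast and mesenchymal microRNAs had a median of −0.09, epithelial −0.11, haematopoietic −0.88, endothelial −0.23, muscle −0.02, and the list of neural and melanocyte origin −0.16. The haematopoietic median was −0.45 without KO hypoxia library 1. When libraries were scaled to their microRNA total, medians below 0 turned positive for the hypoxia (0.10), miR-30 (0.12), miR-15/16 (0.02), miR-181 (0.03), fibroblast (0.07), epithelial (0.04) and muscle (0.13) lists. miR-126-3p, the defining endothelial microRNA, read 120 and 141 in WT and 84 and 114 in KO (−0.41, SE 0.32), and miR-486-5p, another red cell microRNA, read 73 and 78 against 61 and 55 (−0.38, SE 0.35).

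Genomic transfer RNAs, which carry amino acids to the ribosome and whose reads in a small RNA library come from whole or cleaved molecules, differed by anticodon. Over all 410 members the median was 0.10 and none passed the threshold. With copies included, 28 had an unadjusted limma p under 0.05 above 0 and 13 below, where 7.14% and 1.88% of all features had. Many features held nearly proportional values across all libraries, or overlapping places, and are called copies here. The 410 came to 242 when such copies were counted once, and their sequences were not compared. One transfer RNA each for asparagine, aspartate and glutamate, described next, is shown as the files give it, with the anticodon in capitals.
chr10.tRNA381-AsnGTT: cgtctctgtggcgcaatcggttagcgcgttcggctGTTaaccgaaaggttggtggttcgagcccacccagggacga
chr11.tRNA397-AspGTC: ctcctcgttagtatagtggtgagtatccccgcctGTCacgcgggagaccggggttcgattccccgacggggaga
chr13.tRNA105-GluTTC: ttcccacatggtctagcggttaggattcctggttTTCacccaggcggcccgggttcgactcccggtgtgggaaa

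Asparagine transfer RNAs (AsnGTT) were lower in KO for all 13 members, with no overlap in any and a median of −0.87, where 16.6% of all features had both KO values below both WT values. The 13 came to 8 with copies counted once. chr10.tRNA381-AsnGTT read 598 and 809 in WT and 355 and 418 in KO (−0.85, SE 0.29, limma, adjusted p = 0.493). In normoxia the same transfer RNA read 276 and 340 in WT and 377 and 432 in KO, and the median of the 13 was 0.36. For 10 of the 13, copies included, the difference between oxygen levels had an unadjusted limma p under 0.05, as it had for 2.40% of all features. None passed after adjustment (limma, no feature of 1540). The highest values of these transfer RNAs were thus in the WT hypoxia libraries. The median was −0.49 without WT hypoxia library 2.

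Other AsnGTT copies had equally small p-values. chr15.tRNA1013-AsnGTT read 543 and 837 in WT and 317 and 383 in KO (−0.95, SE 0.32), and chr1.tRNA814-AsnGTT read 274 and 456 against 157 and 189 (−1.03, SE 0.35). Alanine transfer RNAs were also lower in 27 of 29 members, with a median of −0.56 that was −1.19 between the libraries numbered 1 and 0.11 between those numbered 2. chr13.tRNA71-AlaAGC read 1421 and 1223 in WT and 371 and 832 in KO (−1.24, SE 0.45). chr4.tRNA626-AlaCGC stood against that direction with 2226 and 2242 in WT and 3824 and 3305 in KO (0.67, SE 0.27).

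Aspartate and glutamate transfer RNAs had higher levels in KO. All 16 AspGTC members had both KO values above both WT values, where 19.2% of all features had, with a median of 0.74 in hypoxia and 0.81 in normoxia. chr11.tRNA397-AspGTC read 4109 and 6007 in WT and 8347 and 10095 in KO (0.89, SE 0.35). Of 20 glutamate members 18 had both KO values above both WT values (19.2% of all features), with medians of 0.88 for GluTTC (8) and 0.57 for GluCTC (12). chr13.tRNA105-GluTTC read 4638 and 10093 in WT and 17120 and 17778 in KO (1.35, SE 0.44). The copies counted once were 7 for AspGTC, 4 for GluTTC and 2 for GluCTC. All 10 tyrosine members were above 0 with a median of 0.44, of which 4 did not overlap (19.2% of all features). chr13.tRNA958-TyrGTA read 1064 and 1017 in WT and 1653 and 1518 in KO (0.61, SE 0.25). The tyrosine median was 0.13 without KO hypoxia library 1.

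Some transfer RNA groups rested on 1 library. The 7 phenylalanine members had a median of 0.84, which was 1.78 between the libraries numbered 1 and −0.10 between those numbered 2, and −0.30 without KO hypoxia library 1. The 8 tryptophan members had a median of −0.33 in hypoxia, 0.07 without KO hypoxia library 1, and 0.82 in normoxia. Histidine members lay below 0 in 11 of 11 with a median of −0.15 and no separation of the groups, and the median of the HisGTG copies turned from −0.14 to 0.01 when libraries were scaled to their microRNA total. Cysteine, with 56 members the largest group, had a median of 0.24 in hypoxia and 0.87 in normoxia.

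**Figure D4:**
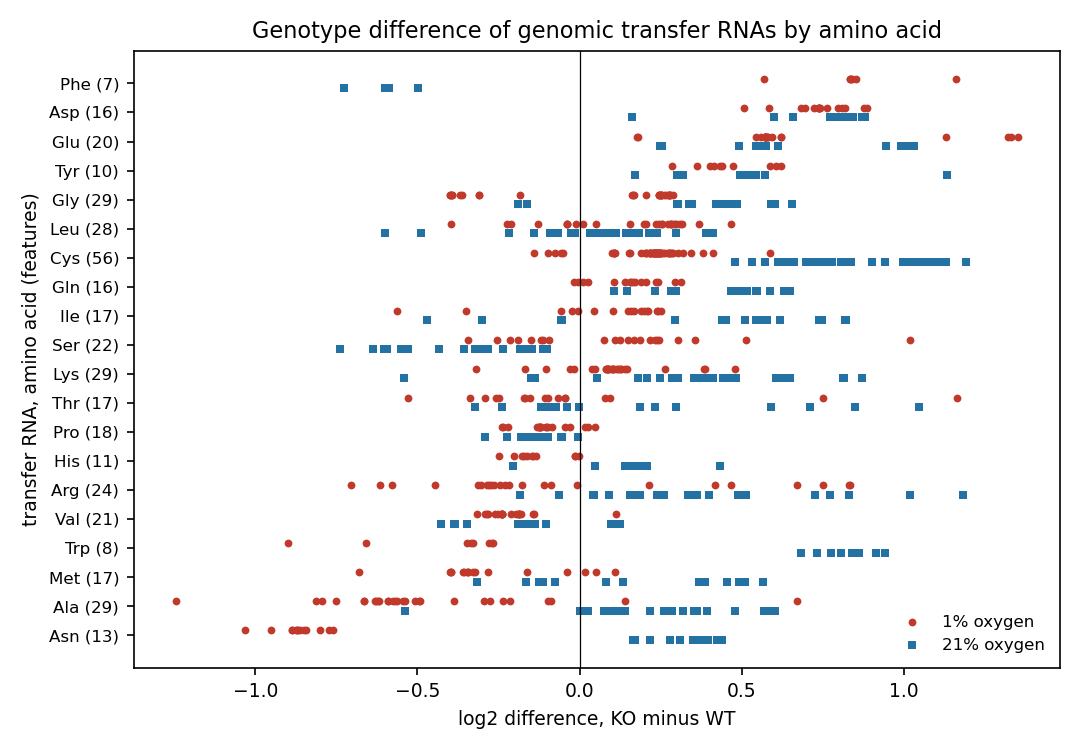
Log2 difference KO minus WT (x axis) of genomic transfer RNAs, 1 point per feature, for the amino acids with at least 7 members (y axis, members in parentheses), at 1% oxygen (circles) and 21% oxygen (squares). Asparagine lies below 0 at 1% oxygen and above 0 at 21% oxygen, while aspartate and glutamate lie above 0 at both.

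Mitochondrial transfer RNAs, which serve the translation of respiratory chain subunits, had 17 of 22 members below 0 and a median of −0.19, with 1 member separated upward and 3 downward (19.2% and 16.6% of all features). mt-Tt (ENSMUST00000082422) read 1399 and 2265 in WT and 536 and 1713 in KO (−0.89, SE 0.55), so the groups overlapped. mt-Ts2 (ENSMUST00000082416) read 32998 and 26277 against 47303 and 32493 (0.41, SE 0.35), and mt-Ts1 (ENSMUST00000082403) read 641 and 672 against 768 and 781 (0.24, SE 0.29). Without KO hypoxia library 1 the median of the type was 0.04.

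Ribosomal RNA features, most of them named as copies of the 5S gene whose reads cannot be assigned to 1 copy with certainty, had the highest median of any type, 1.03 over 12 members, with 9 separated upward (19.2% of all features) and 1 downward (16.6%). The main copy n-R5s194 (ENSMUST00000104719) read 175871 and 228101 in WT and 538192 and 275372 in KO (0.94, SE 0.37, limma, adjusted p = 0.545). KO hypoxia library 1 stood well above the other KO library. Gm25365 (ENSMUST00000158852) read 1041 and 1382 against 3298 and 2306 (1.20, SE 0.35), and Gm24786 (ENSMUST00000157379) read 21 and 38 against 112 and 57 (1.47, SE 0.50). n-R5s77 (ENSMUST00000083757) had the opposite direction, with 589 and 526 against 146 and 399 (−1.20, SE 0.52). Without KO hypoxia library 1 the median was 0.65 and no member had an unadjusted p under 0.05.

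Small nucleolar RNAs outside the Dlk1-Dio3 domain, which guide chemical modification of ribosomal and spliceosomal RNA, lay below 0 more often than above, with 254 of 356 below 0 and 87 separated downward (16.6% of all features) against 24 upward (19.2%). Scaling to the microRNA total moved the median of the whole type from −0.09 to 0.06. Snord72 (FR085186) read 3445 and 4164 in WT and 1918 and 2380 in KO (−0.83, SE 0.28, limma, adjusted p = 0.493). FR405946 read 137 and 97 against 58 and 45 (−1.16, SE 0.38), Gm25617 (ENSMUST00000179548) averaged 138 ± 24.0 in WT and 76 ± 2.83 in KO (SD, n = 2 each, −0.84, SE 0.29), and Snord88a (FR222366) read 127 and 109 against 69 and 59 (−0.87, SE 0.34). The groups were apart for all 4.

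The 38 small nuclear RNAs, a class that includes components of the splicing machinery and their copies, had a median of 0.21, 0.48 between the libraries numbered 1 and −0.13 between those numbered 2. FR231715 (Gm23907) read 126 and 84 in WT and 255 and 181 in KO in hypoxia (1.05, SE 0.35), and 185 and 130 in WT and 67 and 70 in KO in normoxia (−1.17). The change between oxygen levels, 2.22, had one of the 3 smallest p-values of that contrast (unadjusted p = 0.0012, limma, adjusted p = 0.917). FR349724 (Gm25007) read 505 and 385 against 1327 and 446 (0.80), a difference carried by KO hypoxia library 1. FR405909 (Gm22710) read 606 and 703 against 413 and 434 (−0.62), and Gm26244 (ENSMUST00000083435) read 35994 and 32047 against 24740 and 16962 (−0.73).

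piRNA-type features, listed under the name of a germline RNA class, had a median of −0.12 over 55 members (0.02 when scaled to the microRNA total). FR247288 read 161 and 33 in WT and 17 and 14 in KO (−2.18, SE 0.74), with the WT libraries far apart, and FR370763 read 48 and 42 against 23 and 14 (−1.27, SE 0.48). FR364103 (11 and 5 against 18 and 23) and FR105294 (5 and 7 against 12 and 24, admitted by its KO values alone) lay near the level for admission. The 12 miscellaneous RNAs had a median of 0.12, with Gm25883 (ENSMUST00000157781) at 14 and 7 in WT and 15 and 34 in KO and Gm22227 (ENSMUST00000157356) at 10 and 21 against 8 and 7, admitted by its WT values alone. The remaining transfer RNA feature, FR267504 (mt-Tf), read 34 and 60 in WT and 37 and 35 in KO.

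The genotype difference in hypoxia was set beside that in normoxia, where no library is shared. Libraries of the same number still deviated together, at r = 0.551 between WT normoxia and WT hypoxia and r = 0.151 between KO normoxia and KO hypoxia across features, and the part of this in the comparison was not tested. Across the 1473 members other than miR-210, Pearson's r between both differences was 0.479 and Spearman's rho 0.403, a description across features that are not independent, and 65.0% had the same sign. With the 88 features of the domain also left out, r was 0.308 over 1385 features and 62.9% had the same sign. Of the 286 members separated upward in hypoxia 165 were separated upward in normoxia too, 57.7% of the first set and 50.8% of the second. Of 253 separated downward 85 were so in normoxia, 33.6% and 28.6%. In normoxia alone 1 feature, miR-210-3p, passed the adjusted threshold (0.0649% of features, limma). Over all tested features 10.8% were separated upward at both oxygen levels and 5.52% downward at both. The test of the difference between oxygen levels called no feature (limma, 0 of 1540, 0.00%). At an unadjusted p under 0.05 it held 37 features, or 2.40%.

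**Figure D5:**
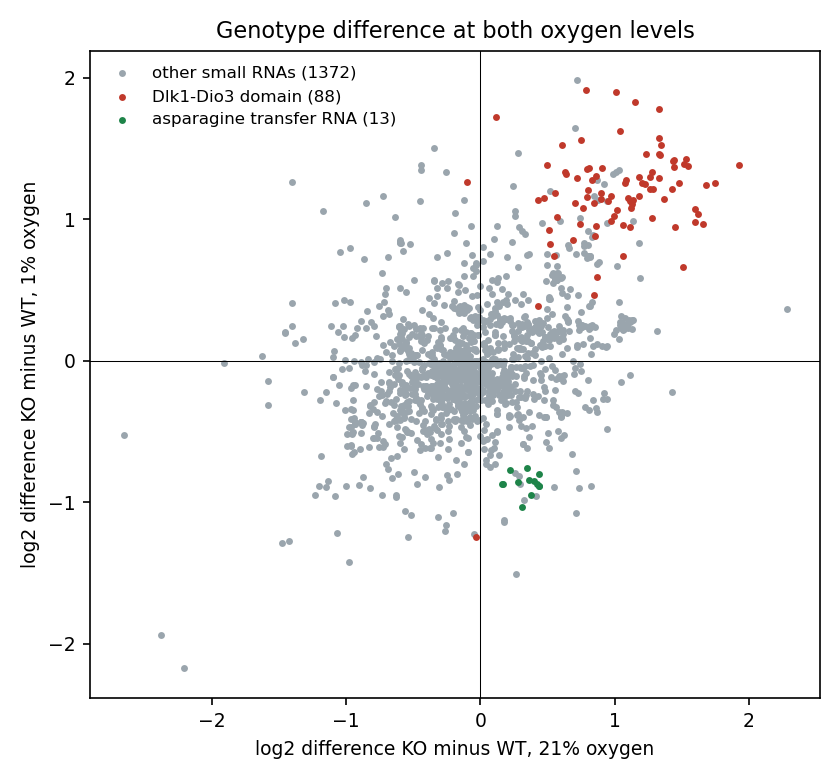
Log2 difference KO minus WT at 21% oxygen (x axis) against that at 1% oxygen (y axis), 1 point per member other than miR-210. Features of the Dlk1-Dio3 domain gather at the upper right, and the 13 asparagine transfer RNAs lie below 0 at 1% oxygen and above 0 at 21%.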

How the data were processed

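Total RNA was purified with miRNeasy and made into libraries with NEBNext small RNA reagents for the SOLiD platform, per the labels' protocols. The values of the deposited table are the authors' score, a read count that they normalized and that is written in whole numbers. The sources used here do not state trimming, aligner, build, the handling of multiply matching reads or the normalization. Features with at least 10 in at least 2 of 8 libraries were tested (1540) with limma 3.58.1 in R 4.3.3 on log2(value + 1), with an intensity trend, 4 group means, 4 residual and 5.64 prior degrees of freedom, and Benjamini-Hochberg adjustment at 0.05. The pseudocount of 1 understates changes of low features. The procedure was tested on simulated data. Differences are KO minus WT with the limma standard error. Intervals of the miR-210 ratios treat values as counts. Of 813 microRNA features 556 were matched by name to a RefSeq sequence (GRCm38), and coordinates of the files were not mixed with that build.

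Features named were both miR-210 arms, all past the threshold, the smallest p-values by type and direction (8 microRNAs, 4 small nucleolar RNAs, 4 transfer RNAs, 2 of other types), the 2 most abundant of each list, the 5 most abundant members and the 3 smallest p-values of the oxygen contrast; names outside this rule are marked. Of these, features whose difference was close to 0 are given by their values or their list alone. The members and lists were chosen with earlier results of these data known. The 19 alternatives covered pseudocounts, filters, scaling, the trend, the replicate number and each library left out.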

Additional observations from a re-analysis of the deposited data

How the results depend on the processing

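The count of features past the threshold between KO and WT hypoxia libraries was 2, the same arms of miR-210, in all 19 alternatives, and that for the difference between oxygen levels was 0 in all 18. Without 1 library at a time these counts ran from 2 to 2 and from 0 to 0. miR-210-3p ranged from −11.75 to −10.16 and miR-210-5p from −7.86 to −4.62. Of the features printed with a difference only miR-467a-5p changed sign, over a range from −0.24 (without WT hypoxia replicate 2) to 0.64 (without WT hypoxia replicate 1). Counts at an unadjusted p under 0.05 moved more. They were 139 in all (110 higher), 48 (19 higher) without WT hypoxia replicate 1, 68 (52 higher) without KO hypoxia replicate 1 and 142 (79 higher) without KO hypoxia replicate 2. Scaling to the microRNA total moved the median of all features from −0.04 to 0.11 and gave 131 higher of 140. Replicate numbers did not enter the reported fit, which left out any pairing of same-numbered libraries, and a block for them was an alternative. With the replicate block 2 features passed (206 at an unadjusted p under 0.05), and the deviations of same-numbered libraries of the 2 hypoxia groups correlated at r = 0.339 across features (0.151 to 0.551 over the 6 pairs of groups). With 2 libraries a group, smaller differences than those of miR-210 did not pass here.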
